A study of Mus musculus with 2 samples.

Results

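The Cyp2c genes encode a family of cytochrome P450 enzymes. The 9 genes described here are Cyp2c29, Cyp2c37, Cyp2c38, Cyp2c39, Cyp2c44, Cyp2c50, Cyp2c54, Cyp2c55 and Cyp2c70 of the mouse. The choice was by name, with earlier results of these data known. These genes were found by their symbol, or a synonym of it, among the non-control probes of both arrays. This gave 13 probes on 22 spots, of 22803 named genes, 39429 probes and 43020 spots in all. RNA came from livers of wild-type and of AID transgenic mice, both on the C57BL/6 background, where AID is the activation-induced cytidine deaminase of B cells. In each genotype, a liver exposed to thioacetamide, a compound toxic to the liver, given for 6 months in drinking water was compared with an untreated liver. Each genotype had 1 Agilent 2-colour array, with the treated liver in Cy5 and the untreated liver of the same genotype in Cy3, and dyes were not swapped. Not given in the sources used here are the promoter that drives the AID transgene, the age and sex of the mice, and how many animals gave the RNA of a channel.

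Cytochrome P450 enzymes of this family sit in the endoplasmic reticulum of hepatocytes, carry a heme group, and receive electrons from the reductase Por. They oxidize drugs and other foreign compounds, and several convert arachidonic acid to epoxides, which the epoxide hydrolases Ephx1 and Ephx2 then open to diols. Their transcription in liver depends on hepatocyte factors such as Hnf4a and on the xenobiotic receptors Nr1i3 (CAR) and Nr1i2 (PXR), and some members differ between male and female liver.

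The paralogs resemble each other closely, so the probes that bear on whether a signal belongs to 1 gene are shown first, 5′ to 3′. All member probes lie on chromosome 19 of mm9 per the scanner files, and positions in the transcript are those the files give. Of 73 pairs of probes from different members, 2 overlapped when slid along each other, by at least 20 bases with at least 80% identity, and 0 were identical. In the first pair, the end of the Cyp2c29 probe (chr19:39403642-39403701, from transcript base 1230) and the start of a Cyp2c37 probe (chr19:40084382-40084441, from base 1242) share 27 of 31 bases. Capitals mark the 4 bases that differ over the overlap.
Cyp2c29: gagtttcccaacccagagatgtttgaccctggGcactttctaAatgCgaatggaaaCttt
Cyp2c37: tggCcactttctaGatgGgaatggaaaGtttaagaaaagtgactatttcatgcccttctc
In the second pair, the other Cyp2c37 probe and the Cyp2c50 probe share 35 of 40 bases. A pair of Cyp2c54 probes (chr19:40144659-40144718 from transcript base 760, and base 778 onward) share 42 bases, given in capitals, so they measure nearly the same stretch of 1 transcript. The second of them spans 22582 bases of the genome and therefore crosses a splice junction.
Cyp2c54, first probe: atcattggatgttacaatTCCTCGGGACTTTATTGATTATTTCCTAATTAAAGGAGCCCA
Cyp2c54, second probe: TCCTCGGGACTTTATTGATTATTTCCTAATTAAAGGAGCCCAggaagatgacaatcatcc
How far a transcript of 1 paralog bound the probe of another was not tested. The members' values are therefore given probe by probe where a gene has several.

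The treated AID transgenic liver stood apart in 6 of the 9 members. Cyp2c29, Cyp2c37, Cyp2c38, Cyp2c39, Cyp2c50 and Cyp2c54 were lower in the treated than in the untreated AID transgenic liver. Without Cyp2c38, whose probes disagreed, they were between 3.52-fold (Cyp2c50) and 5.43-fold (Cyp2c29) lower. In the wild-type livers none of the 9 was 2-fold lower or higher with the probes of a gene averaged. The bright Cyp2c38 probe by itself had a log2 ratio of -1.32 there. Cyp2c70 was lower by a similar amount in both genotypes, and Cyp2c44 and Cyp2c55 were near their untreated level in the AID transgenic liver relative to the loess curve used for scaling. With 1 array per genotype there is no replicate spread, so no difference was tested. The ± beside a value is the scanner software's error for the deposited log ratio, averaged over spots and probes. For a difference the errors of both arrays were combined as the root of their summed squares. Such an error describes the array and not mice.

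Levels below are log2 signals after normalization within and between the arrays, given in the order untreated wild-type, treated wild-type, untreated AID transgenic, treated AID transgenic. A level depends on the probe, so it is compared between livers and never between probes. Cyp2c29 is a pericentral epoxygenase that CAR activators induce. Its levels were 14.98, 14.45, 15.17 and 12.72. The first 3 lay close together and the treated AID transgenic liver was the lowest. The log2 ratio of treated over untreated was -0.53 ± 0.21 in wild-type and -2.44 ± 0.30 in AID transgenic mice. Its probe was printed 10 times on each array, and the spots ranged from -0.55 to -0.48 (SD 0.02) in wild-type and from -2.46 to -2.40 (SD 0.02) in AID transgenic mice. For scale, the 399 probes with 10 spots had a median SD of 0.08 on either array.

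Cyp2c37, Cyp2c50 and Cyp2c54 are close relatives of Cyp2c29 in the same gene cluster. Of the Cyp2c37 probes, the one that overlaps the Cyp2c29 probe had levels of 12.28, 11.63, 12.48 and 10.01, and the other had 14.63, 13.93, 14.56 and 12.56. Both were lowest in the treated AID transgenic liver. Their ratios were -0.65 and -0.70 in wild-type mice and -2.471 and -1.996 in AID transgenic mice, a mean of -2.23 ± 0.29 in the latter. Cyp2c50 had levels of 15.63, 15.10, 15.60 and 13.78, and ratios of -0.53 ± 0.21 and -1.81 ± 0.26. The untreated livers of the genotypes differed by 0.03 in Cyp2c50 and the treated livers by 1.32, with the AID transgenic liver lower in both.

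Cyp2c54 was measured by 3 probes. The brightest had levels of 15.45, 15.21, 15.51 and 13.67, the first of the overlapping pair 12.53, 12.53, 12.72 and 10.40, and the second 10.93, 10.64, 11.13 and 8.74. On each of them the 2 wild-type livers and the untreated AID transgenic liver lay close together and the treated AID transgenic liver was lower. In the AID transgenic mice the ratios of these probes were -1.84, -2.32 and -2.39, with a mean of -2.18 ± 0.29. The wild-type mean was -0.17 ± 0.21, which is smaller than its scanner error. The genotypes' ratios of Cyp2c54 differed by -2.01 ± 0.36, and by -1.603 with its brightest probe.

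**Figure D1:**
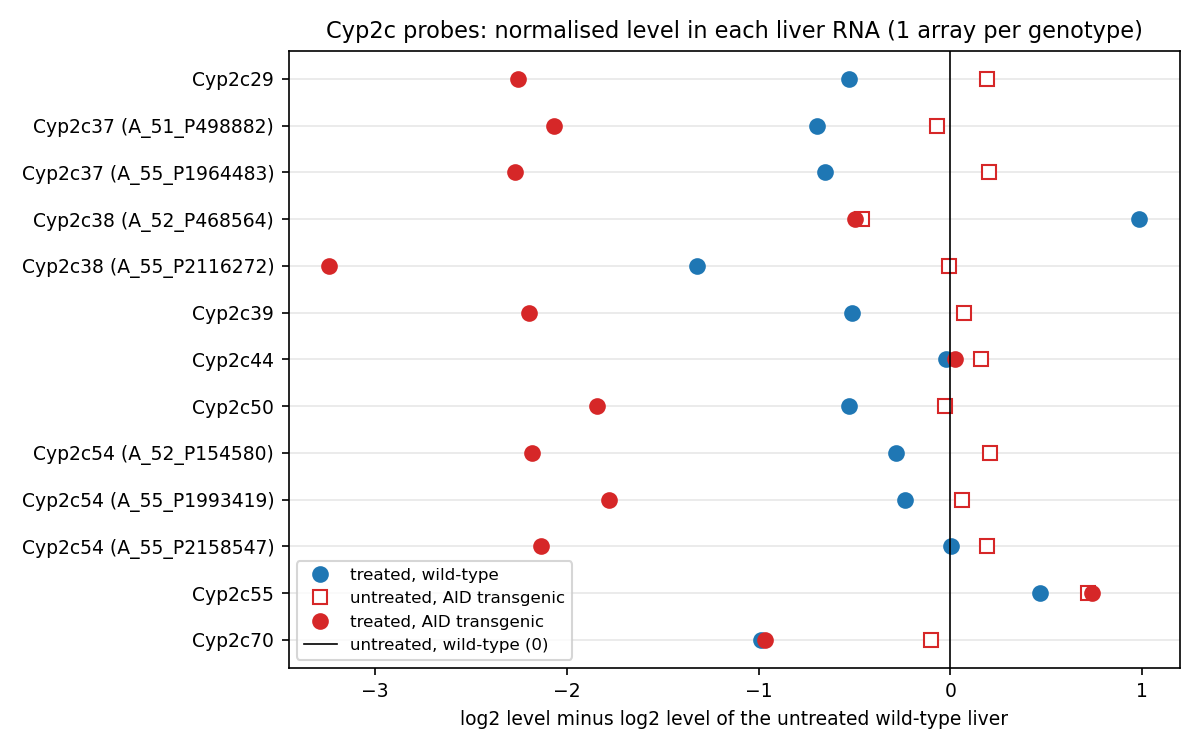
Normalised log2 level of each Cyp2c probe in the treated wild-type liver (filled blue circles), the untreated AID transgenic liver (open red squares) and the treated AID transgenic liver (filled red circles), each minus the level of the untreated wild-type liver (line at 0), with 1 array per genotype. The treated AID transgenic liver lies at the left on every probe of Cyp2c29, Cyp2c37, Cyp2c39, Cyp2c50 and Cyp2c54, while the points of Cyp2c44 lie within 0.16 of 0.

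Cyp2c38 and Cyp2c39 are more abundant in female than in male liver, and Cyp2c39 hydroxylates retinoic acid. Cyp2c39 had levels of 13.59, 13.08, 13.66 and 11.39. Its ratio was -0.51 ± 0.21 in wild-type and -2.27 ± 0.29 in AID transgenic mice, where it was 4.81-fold lower. The Cyp2c39 probe (chr19:39642568-39642627, from transcript base 1405) overlapped no other member's probe at the limits above and is shown as an example of a probe without such an overlap.
Cyp2c39: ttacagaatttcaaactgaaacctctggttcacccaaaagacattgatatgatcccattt
The probes of Cyp2c38 disagreed. The bright one had levels of 14.58, 13.26, 14.57 and 11.34, and ratios of -1.32 ± 0.24 and -3.23 ± 0.36. The dim one had 6.73, 7.71, 6.27 and 6.23, and ratios of 0.98 ± 0.31 and -0.04 ± 0.83, and it was not well above background in the untreated AID transgenic liver. The gene's mean over both was -0.17 ± 0.27 in wild-type and -1.63 ± 0.60 in AID transgenic mice, with an SD between probes of 1.63 and 2.26. The wild-type sign of Cyp2c38 therefore depends on the probe, and the mean of both probes also changed sign with the processing, to 0.45 with the scanner's processed signals.

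Cyp2c70 makes muricholic acids, bile acids typical of rodents. Its levels were 15.33, 14.34, 15.23 and 14.36, so both treated livers were low and the untreated livers high. The ratios were -0.99 ± 0.22 in wild-type and -0.87 ± 0.22 in AID transgenic mice, 1.98-fold and 1.82-fold lower, and they differed by 0.12 ± 0.31. The wild-type value lies just inside the limit of 2-fold and was -1.03 with the processed signals. With ratios centred on the array median, Cyp2c70 was -0.19 in wild-type and -0.11 in AID transgenic mice, so its lower level in the treated livers holds relative to the loess curve.

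Cyp2c44, an arachidonic acid epoxygenase that nomenclature now lists as Cyp2c23, had levels of 14.51, 14.49, 14.68 and 14.54. Its ratios of -0.02 ± 0.20 and -0.14 ± 0.20 were smaller than the scanner error in both genotypes. With median centring they were 0.76 and 0.62. Cyp2c55, which is best known from the intestine, was dim, with levels of 7.99, 8.46, 8.71 and 8.73, yet well above background in all 4 channels. The untreated wild-type liver was the lowest and both AID transgenic livers were close together. Its ratios were 0.46 ± 0.21 in wild-type and 0.02 ± 0.21 in AID transgenic mice, and 0.98 and 0.58 with median centring.

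Read as a family, 0 members were at least 2-fold lower and 0 at least 2-fold higher in the wild-type comparison, where 3.5% of 16662 measured genes were past that limit, 1.64% lower and 1.86% higher. The members' median log2 ratio there was -0.51, beside 0.03 over all genes. In the AID transgenic comparison 6 of 9 were at least 2-fold lower and 0 higher, where 2.16% of 16691 genes were past the limit, 0.947% lower and 1.22% higher. The members' median was -1.81, beside 0.03 over all genes. Counted from the lowest ratio of that comparison, Cyp2c29 was at rank 7, Cyp2c39 at 9, Cyp2c37 at 10, Cyp2c54 at 12, Cyp2c50 at 32, Cyp2c38 at 40 and Cyp2c70 at 224. In the wild-type comparison, with the probes of a gene averaged, the lowest ranks were 277 for Cyp2c70 and 617 for Cyp2c37, while the brightest probe put Cyp2c38 lower than either, at -1.32. These counts over all genes move with the scaling: among genes past the limit, 53.1% were higher in wild-type and 56.2% in AID transgenic mice, against 94.4% and 96.2% when ratios were centred on the array median in place of the loess curve. Centring shifted the median of all genes to 0.35 and 0.34. With it 8 of 9 wild-type members lay above 0, all but Cyp2c70 at -0.19, so the sign of the small wild-type ratios holds only relative to the loess curve. In AID transgenic mice the same 6 members stayed at least 2-fold lower with centring, from -1.06 for Cyp2c50 to -1.71 for Cyp2c29, when 53 of 16691 genes were that low.

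**Figure D2:**
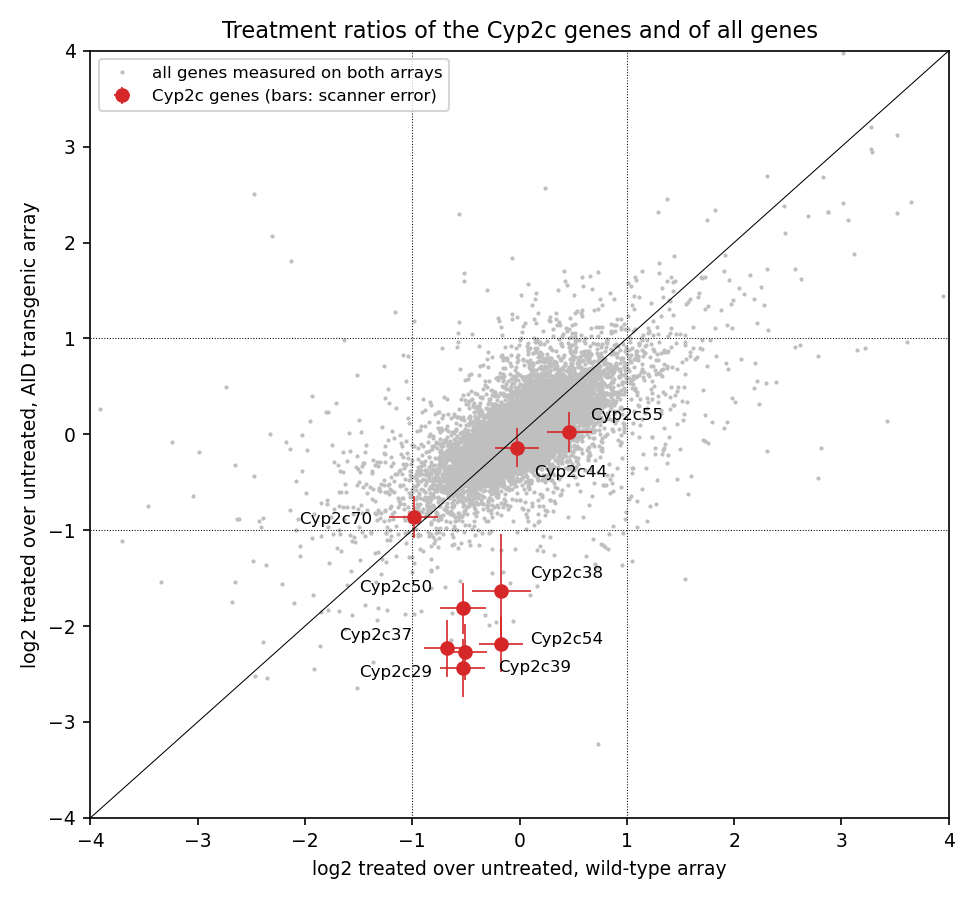
Log2 ratio of treated over untreated on the wild-type array (x axis) and the AID transgenic array (y axis) for the Cyp2c genes (red, bars are the scanner error) and for 16235 genes measured on both arrays (grey, with 14 more beyond the axes), with dotted lines at 2-fold and a solid line of equal ratios. With the probes of a gene averaged, Cyp2c29, Cyp2c37, Cyp2c38, Cyp2c39, Cyp2c50 and Cyp2c54 lie below the line of equal ratios and past 2-fold on the y axis alone. Cyp2c70 lies on the line near -1, and Cyp2c44 lies near the origin. The bright Cyp2c38 probe by itself had -1.32 on the wild-type array.

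The same livers were set against each other across genotypes. The AID transgenic ratio minus the wild-type ratio was at least 2-fold lower for 6 of 9 members and at least 2-fold higher for 0, where 1.98% of 17104 genes were past that limit, 1.05% lower and 0.93% higher. The differences were -1.91 ± 0.37 for Cyp2c29, -1.76 ± 0.36 for Cyp2c39, -1.56 ± 0.36 for Cyp2c37, -1.46 ± 0.65 for Cyp2c38 and -1.29 ± 0.34 for Cyp2c50, besides Cyp2c54 above. Cyp2c55 had -0.44 ± 0.30 and Cyp2c44 -0.12 ± 0.29. Between the untreated livers, AID transgenic over wild-type, 0 of 9 members were 2-fold apart, where 0.602% of 14296 genes were, 0.294% lower and 0.308% higher. Their median was 0.07, and the values ran from -0.23 for Cyp2c38 to 0.71 for Cyp2c55. Between the treated livers 6 of 9 were at least 2-fold lower in the AID transgenic liver and 0 higher, where 1.49% of 17076 genes were past the limit, 0.761% lower and 0.732% higher. The median was -1.49, and Cyp2c54 at -1.86 and Cyp2c29 at -1.72 were the lowest, with Cyp2c44 at 0.04 and Cyp2c70 at 0.02. These 3 comparisons reuse the livers of the treatment ratios, so their values are side by side and not separate evidence. The low values belong to the treated AID transgenic liver: in each of the 6 members its level was the lowest of the 4 livers.

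The liver in the treated wild-type channel also differed in sex-linked transcripts, which bears on every comparison that holds it. The Y-linked genes Ddx3y and Eif2s3y were well above background in the other 3 channels and not in this one. Xist, which is transcribed from the inactive X of females, was well above background in this channel and in no other. Treatment and these transcripts cannot be told apart on the wild-type array. On the AID transgenic array Ddx3y had -0.11 ± 0.20 and Eif2s3y -0.05 ± 0.20. Of the growth hormone and sex-dependent factors 4 of 9 were at least 2-fold higher and 1 lower on the wild-type array, and 0 either way on the AID transgenic array. Among the former, the female-type repressor gene Cux2 had 1.27 ± 0.43 in wild-type and -0.14 ± 1.28 in AID transgenic mice, and Trim24 had 1.73 ± 0.26 and 0.20 ± 0.21. Socs2, an inhibitor of growth hormone signalling, had 1.096 ± 0.28 and -0.97 ± 0.25, and the repressor gene Bcl6 had 1.03 ± 0.23 and 0.54 ± 0.21. The untreated livers also differed in Socs2, by 1.36, with the AID transgenic liver higher. Its levels were 6.89, 7.99, 8.25 and 7.28, lowest in the untreated wild-type and highest in the untreated AID transgenic liver. The growth hormone receptor gene Ghr had -1.19 ± 0.23 and -0.59 ± 0.21. Their part in the Cyp2c values was not tested.

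The hepatocyte markers were all well above background in all 4 channels. The log2 of their summed level was 19.45 and 19.48 in the untreated wild-type and AID transgenic livers and 19.02 and 19.05 in the treated ones. This sum weighs the brightest genes most, and single markers differed. Of 9 markers 3 were at least 2-fold lower in wild-type and 4 in AID transgenic mice, and 0 higher. Their median ratios were -0.94 and -0.99. Glul had -2.47 and -2.52, while Alb had 0.60 and 0.17. Fewer hepatocytes and less Cyp2c RNA per hepatocyte cannot be told apart in whole liver RNA. The 6 macrophage markers, all above background, summed to 13.28, 13.36, 13.28 and 14.49 in the order above, highest in the treated AID transgenic liver. In AID transgenic mice Cd5l had a ratio of 1.48, Clec4f 1.005, Adgre1 0.995 and Csf1r 0.61. Lyz2 at 0.15 and Cd68 at -0.003 hardly changed. Thus 2 of 6 were at least 2-fold higher there, and 0 in wild-type mice. The 6 stellate cell and myofibroblast markers summed to 11.01, 11.98, 11.72 and 11.09. The 5 endothelial markers ran from 12.98 to 13.29. Of 5 cholangiocyte markers Krt7 and Epcam were not well above background outside the treated wild-type liver. Of 5 markers of kidney and intestine, other organs with Cyp2c genes, the kidney genes Umod and Slc12a1 were not well above background in any channel. The intestinal genes Lgals4 and Fabp2 were well above background in all 4, with levels of 11.11, 10.83, 10.10 and 10.29 for Lgals4 and 13.89, 13.37, 13.32 and 13.11 for Fabp2, lower in both AID transgenic livers than in the wild-type livers. The part of these cell types in the Cyp2c values was not tested.

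Along the chromosome, the probes of Cyp2c55 and the cluster of Cyp2c29, Cyp2c38, Cyp2c39, Cyp2c37, Cyp2c54, Cyp2c50 and Cyp2c70 follow each other in that order, and Cyp2c44 lies apart from them. The 6 low members are neighbours in this row, flanked by Cyp2c55 and Cyp2c70, which had other ratios. Other Cyp2c genes on the array lie between them. Cyp2c67 and Cyp2c68, between Cyp2c39 and Cyp2c37, were higher in the treated wild-type liver, at 0.68 ± 0.21 and 0.84 ± 0.22, and lower in the treated AID transgenic liver, at -1.09 ± 0.23 and -1.04 ± 0.22. The Cyp2c68 probe and 1 of the 2 Cyp2c67 probes share 55 of 59 bases. The scanner files list Cyp2c40 as a further target of the Cyp2c68 probe and of the other Cyp2c67 probe, which also lists Cyp2c68, so these genes may not be told apart. Cyp2c65 and Cyp2c66, next to Cyp2c55, were dim and not well above background in the untreated livers.

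**Figure D3:**
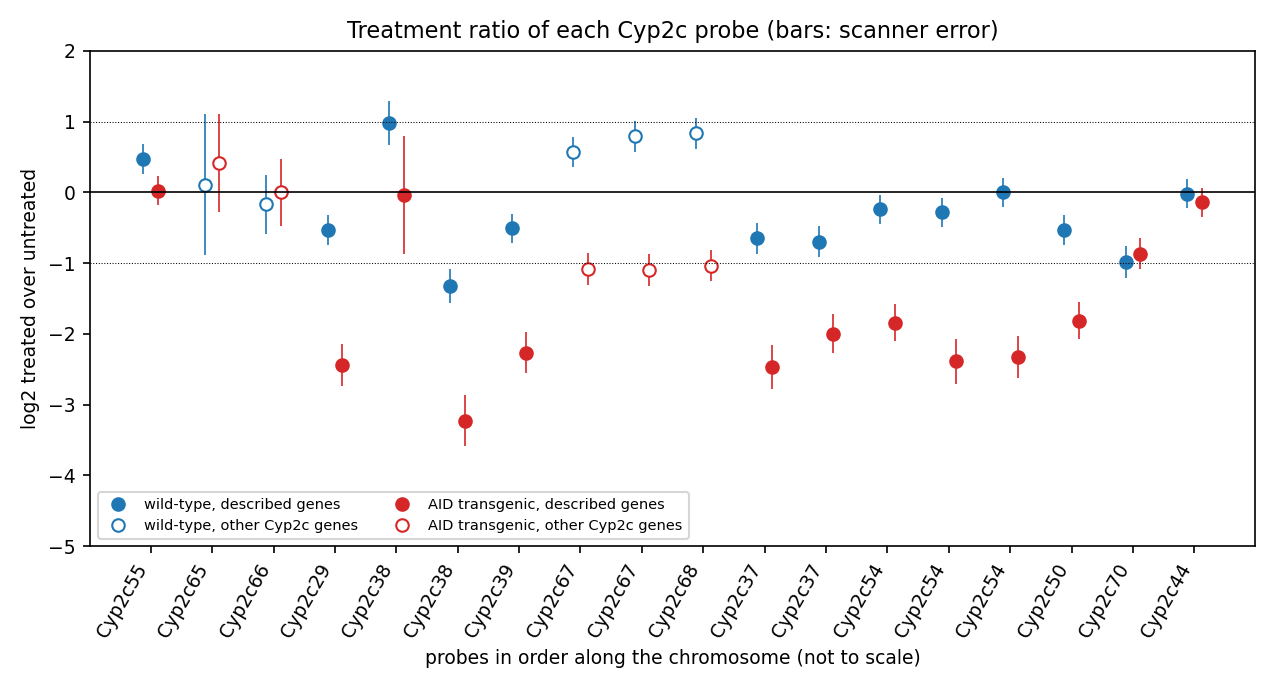
Log2 ratio of treated over untreated for each Cyp2c probe, in its order along the chromosome (not to scale), on the wild-type array (blue) and the AID transgenic array (red), with filled points for the 9 genes described, open points for other Cyp2c genes, bars for the scanner error and dotted lines at 2-fold. The AID transgenic points from Cyp2c29 to Cyp2c50 lie below -1 apart from the dim Cyp2c38 probe, whereas both Cyp2c70 points lie just above -1, at -0.99 and -0.87.

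Promoters of members that were low together are shown beside those of Cyp2c55 and Cyp2c70, which were not among them. RefSeq's table, on GRCm38.p6, held 8 promoters of 7 members, with 2 starts for Cyp2c39 and no entry for Cyp2c54 and Cyp2c44. A stretch of 70 bases is given for 6 of these members, in which capitals mark the letters CAAAGTCNA, which resemble the kind of site that Hnf4a binds, or the nearest match to them. These letters were chosen after the sequences had been seen. The stretches are Cyp2c29 at chr19:39286946-39287015 (plus strand), Cyp2c37 at chr19:39992278-39992347 (plus), Cyp2c39 at chr19:39347202-39347271 (plus), Cyp2c38 at chr19:39463147-39463216 (minus), which differs in 1 letter, Cyp2c55 at chr19:39006877-39006946 (plus), which also differs in 1 letter, and Cyp2c70 at chr19:40187311-40187380 (minus). Cyp2c50 had CAAAGT but not CAAAGTCNA, and no single nearest match, so no stretch is shown for it.
Cyp2c29: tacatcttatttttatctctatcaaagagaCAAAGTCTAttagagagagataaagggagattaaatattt
Cyp2c37: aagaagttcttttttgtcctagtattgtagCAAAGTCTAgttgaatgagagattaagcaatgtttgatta
Cyp2c39: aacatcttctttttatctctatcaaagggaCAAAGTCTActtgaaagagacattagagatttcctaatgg
Cyp2c38: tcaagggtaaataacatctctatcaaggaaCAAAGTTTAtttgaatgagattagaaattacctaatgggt
Cyp2c55: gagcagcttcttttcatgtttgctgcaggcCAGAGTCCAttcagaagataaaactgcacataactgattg
Cyp2c70: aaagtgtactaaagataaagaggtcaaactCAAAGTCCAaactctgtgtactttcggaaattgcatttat
The capitals began 109 bases before the start of Cyp2c29, 116 before Cyp2c37, 114 before this start of Cyp2c39, 111 before Cyp2c38, 112 before Cyp2c55 and 64 before Cyp2c70. On either strand of the 250 bases before the start, CAAAGTCNA was in 5 of the 8 member promoters and in 0.898% of 32851 promoters of the table. Its first letters CAAAGT, which every CAAAGTCNA also contains, were in 7 of 8 and in 12.6%, and the TATA box letters TATAAA in 4 of 8 and in 12.4%. The members are paralogs and share sequence by descent, so these are not separate occurrences, and both starts of Cyp2c39 are counted. Outside the members, Cyp2c40, Cyp2c65, Cyp2c67, Cyp2c68 and Cyp2c69 had CAAAGTCNA too, and Cyp2c66 did not. Of the low members with a promoter in the table, Cyp2c29, Cyp2c37 and Cyp2c39 had the full letters and Cyp2c38 and Cyp2c50 did not. Cyp2c70, whose ratios were alike in both genotypes, had them and Cyp2c55 did not. Hnf4a itself had ratios of 0.06 ± 0.20 and -0.12 ± 0.20.

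The genes that control, supply or follow the Cyp2c enzymes were read from gene lists, each against the same 2-fold limit. These lists were read under the main processing alone. How far single values near the limit move with the scaling was not tested. Of 17 receptors and factors, 1 was lower and 1 higher in wild-type, and 2 were lower and 1 higher in AID transgenic mice. Nr1i2 (PXR) had levels of 10.27, 10.12, 11.34 and 9.90, highest in the untreated AID transgenic liver, and ratios of -0.15 ± 0.20 and -1.44 ± 0.25. Cebpb, a factor of the hepatocyte and of inflammation, had -0.80 ± 0.22 and -1.13 ± 0.23. Cebpa, a factor of the mature hepatocyte, had -1.12 ± 0.23 and -0.39 ± 0.21, and Nfe2l2, the NRF2 factor of the oxidant response, had 1.29 ± 0.24 and 1.78 ± 0.27. Nr1i3 (CAR) did not reach the limit, with -0.24 ± 0.21 and -0.53 ± 0.21. The wild-type and AID transgenic medians of the list were 0.04 and -0.19.

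Of 6 electron transfer genes, 1 was lower in AID transgenic and 0 were past the limit in wild-type mice. It was Por, the reductase that all microsomal P450s depend on, with levels of 15.10, 14.75, 15.12 and 14.08 and ratios of -0.35 ± 0.21 and -1.03 ± 0.22. Of 12 genes of heme synthesis and breakdown, 0 were past the limit on either array. Of 4 epoxide hydrolase genes, Ephx1 was higher at 1.07 ± 0.23 and Ephx2 lower at -1.47 ± 0.24 in wild-type mice, and 0 were past the limit in AID transgenic mice, where they had 0.79 ± 0.22 and -0.34 ± 0.21.

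Among 14 measured arachidonate epoxygenase and omega-hydroxylase genes outside the family, 3 were lower and 4 higher in wild-type, against 1 lower and 1 higher in AID transgenic mice. The epoxygenase gene Cyp2j5 was lower on both arrays, at -1.205 ± 0.24 and -1.003 ± 0.24. The omega-hydroxylase gene Cyp4a14 was higher on both, at 4.38 ± 0.47 and 2.18 ± 0.29. The male-type Cyp4a12a had -5.93 ± 0.63 on the wild-type array, where sex-linked transcripts differed too, and 0.47 ± 0.21 on the other, and its neighbour Cyp4a12b had -4.45 ± 0.47 and 0.50 ± 0.21. Cyp4a10, Cyp4a31 and Cyp4a32 had 2.01 ± 0.28, 1.52 ± 0.26 and 1.46 ± 0.25 on the wild-type array and lay between 0.11 and 0.34 on the other.

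Of the other Cyp2 genes, 8 of 27 were lower and 6 higher in wild-type mice (median -0.42), and 2 of 28 lower and 1 higher in AID transgenic mice (median -0.12). In AID transgenic mice the lower genes were Cyp2e1, which oxidizes thioacetamide to its toxic products, at -1.84 ± 0.28, and Cyp2j5, and the higher one was Cyp2a4 at 2.41 ± 0.30. In wild-type mice the lowest were Cyp2d9 at -3.46 ± 0.38, Cyp2d12 at -1.76 ± 0.26, Cyp2d11 at -1.74 ± 0.26 and Cyp2d34 at -1.64 ± 0.37, with an SD of 2.20 between its probes. The highest on the wild-type array included Cyp2b13 at 5.05 ± 0.58, Cyp2a4 at 3.01 ± 0.34 and the CAR target Cyp2b10 at 2.79 ± 0.34. Cyp2b9 was counted as higher too, but its untreated level was not well above background, so no fold is given. Cyp2b10 had -0.45 ± 0.21 on the AID transgenic array. Sex-linked transcripts also differed on the wild-type array, and their part in the wild-type values of these genes was not tested.

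Beside Cyp2c70, 3 of 13 genes of bile acid synthesis were lower and 0 higher in wild-type, and 2 lower and 0 higher in AID transgenic mice. In wild-type mice these were Cyp7b1 at -4.02 ± 0.43, Scp2 at -1.18 ± 0.24 and Baat at -1.08 ± 0.23. Sex-linked transcripts differed too on the wild-type array, and their part was not tested. Cyp7b1 is the oxysterol hydroxylase of the alternative pathway, and Baat conjugates bile acids. In AID transgenic mice the lower genes were Cyp39a1 at -1.95 ± 0.29 and Cyp27a1 at -1.17 ± 0.24. Cyp27a1 is the first enzyme of the alternative pathway. Beside Cyp2c39, of the 2 measured retinoic acid hydroxylases Cyp26b1 had 0.73 ± 0.22 in wild-type and -3.23 ± 0.39 in AID transgenic mice, and Cyp26a1 had 0.17 ± 0.21 and -0.12 ± 0.21.

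Of 16 pericentral hepatocyte genes outside the family, 3 were lower and 1 higher in wild-type, and 5 lower and 2 higher in AID transgenic mice. The glutamine synthetase gene Glul had -2.47 ± 0.30 and -2.52 ± 0.31, and Oat had -2.36 ± 0.30 and -2.54 ± 0.31. Slc1a2, a glutamate transporter gene, had -1.93 ± 0.42 and -1.68 ± 0.39, with an SD between its probes of 1.29 and 1.09. These 3 were past the limit on both arrays. Cyp2e1, at -0.92 ± 0.23 and -1.84 ± 0.28, and the vitamin C synthesis gene Gulo, at -0.51 ± 0.21 and -1.01 ± 0.22, were past it on the AID transgenic array alone, as Cyp2c29, Cyp2c37, Cyp2c50 and Cyp2c54 were. The wild-type value of Cyp2e1 and the AID transgenic value of Gulo lie within their scanner error of the limit. Aldh3a2 was higher in wild-type mice, at 1.35 ± 0.24 against 0.74 ± 0.22. Tbx3 and Rnf43, Wnt targets, were higher in AID transgenic mice, at 1.35 ± 0.24 and 1.31 ± 0.24, against 0.77 ± 0.22 and 0.73 ± 0.22 in wild-type mice. Between the untreated livers, AID transgenic over wild-type, they had -0.80 and -0.64. Between the treated livers they had -0.21 and -0.07.

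**Figure D4:**
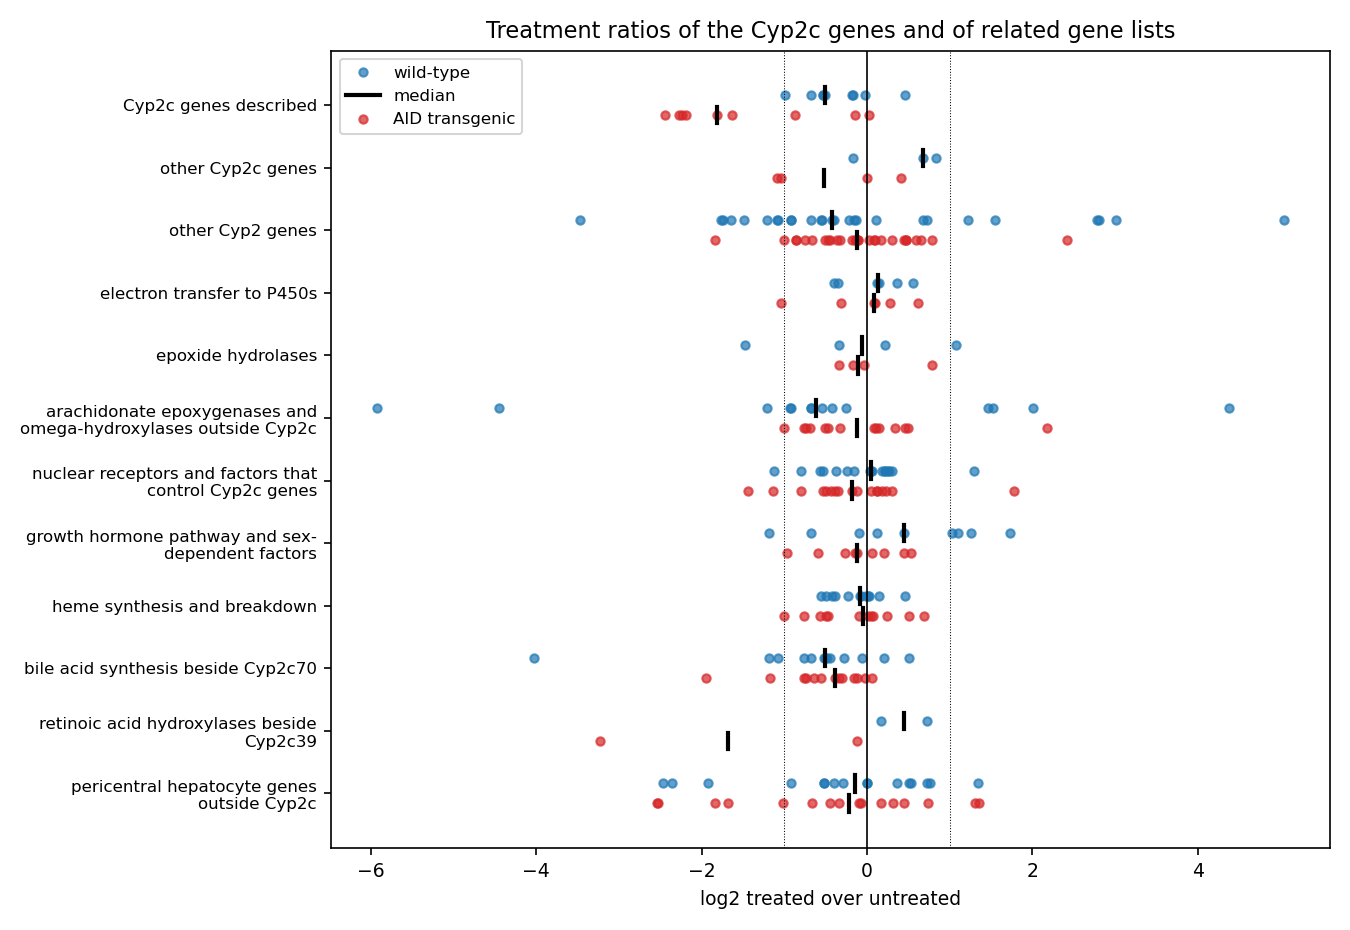
Log2 ratio of treated over untreated for the Cyp2c genes described and for each related gene list (1 point per gene, blue for the wild-type and red for the AID transgenic array, black bars for the medians, dotted lines at 2-fold). The Cyp2c medians are -0.51 and -1.81, while the medians of the other Cyp2 genes are -0.42 and -0.12.

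The genes with the pattern most like the median member were taken over 3 log2 values (both treatment ratios and the untreated genotype comparison) by Euclidean distance, among 13437 genes well above background in all 4 channels. The nearest was Retreg1, at a distance of 0.34, with ratios of -0.69 in wild-type and -1.60 in AID transgenic mice. Cyp2e1 followed at 0.44, with -0.92 and -1.84. Hpd, an enzyme of tyrosine breakdown, Lpin2 and Syt1 came next, at 0.54, 0.55 and 0.58. Their wild-type ratios lay between -0.83 and -0.77 and their AID transgenic ratios between -1.43 and -1.38.

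**Figure D5:**
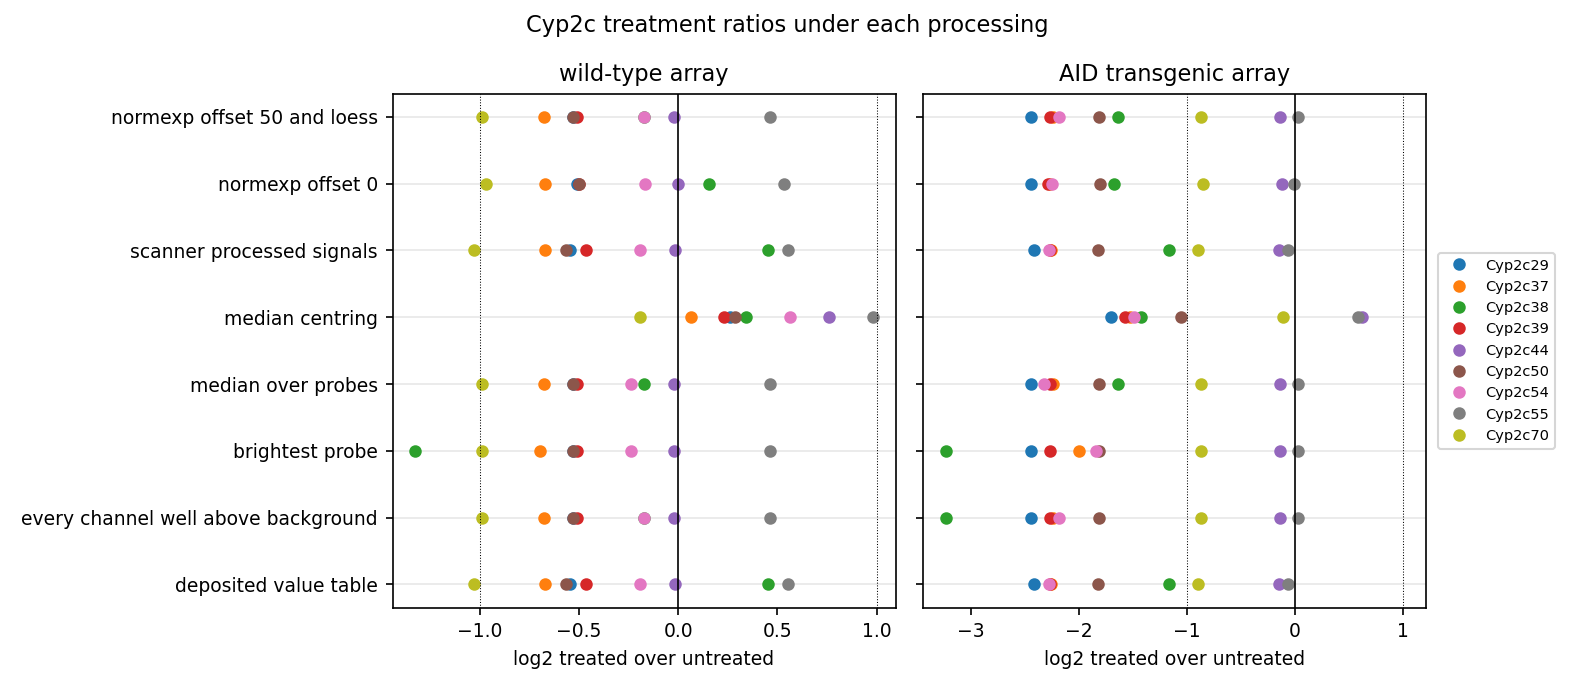
Log2 ratio of treated over untreated of each Cyp2c gene on the wild-type array (left) and the AID transgenic array (right) under the main processing (top row) and 7 alternatives, with dotted lines at 2-fold. On the right the 6 low members lie at -1.06 or lower in every row, and on the left the row of median centring is shifted toward higher values.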

How the data were processed

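The authors deposited the scanner output of 2 arrays. The mean of each spot and the median of its local background are raw intensity values per the file headers, and the deposited processed signals are intensity values already background-subtracted and dye-normalized by the scanner software. The deposited log ratio and value table are log10 of red over green, and the deposited log ratio error comes as a score of the software's own error model, turned to log2 units here. The scanner software was Feature Extraction, given as 10.7.3.1 in the file headers and as 10.5.1.1 in the submitters' processing notes.

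In limma 3.58.1 (R 4.3.3) the intensities were corrected by normexp with an offset of 50 and normalized by loess within each array, with control spots at weight 0 and outlier spots left out. Channel levels were then scaled between arrays (Aquantile). Spots of a probe were averaged, then probes of a gene. A gene counted as measured when a probe was well above background in at least 1 channel that entered the value, which all 9 members met. Ratios are log2 values, computed from the deposited intensities. The background correction and the loess step were checked on simulated data in which few spots changed. The scaling between arrays and the averaging were not checked so. With few changed spots, the check does not bear on how the results depend on the scaling. Non-control spots well above background made up 56.0% and 53.9% (untreated, wild-type and AID transgenic) and 68.4% and 68.8% (treated) of 43020, and having 1 array per genotype limits the precision. No member spot was saturated or an outlier. The arrays shared a slide and a scan.

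Of the probes, 26042 were named by accession, 3195 by symbol and 930 by synonym through RefSeq, and 9249 stayed without a name. The members and gene lists were chosen with earlier results of these data known. Named are all 9 members, genes of the lists past 2-fold in either treatment ratio (up to 4 per list and direction, by size), the 5 genes nearest to the median member, and sex-linked genes. Genes of a list named beside these (Nr1i3, Hnf4a, Cyp26a1, Gulo, Cyp2c65, Cyp2c66) were chosen after their values were seen. The hepatocyte, macrophage, stellate cell and endothelial markers are given by their sums, and the macrophage markers also by gene. The hepatocyte marker Alb was named after its values were seen. Cholangiocyte markers and those of kidney and intestine are given by single genes, and lymphocyte markers are not described. Alternatives covered the background correction, scaling, probe summary, filter on dim probes and the deposited values.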

Additional observations from a re-analysis of the deposited data

Results flagged for a closer look

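Cyp2c67 and Cyp2c68, which lie inside the Cyp2c cluster, had ratios of opposite sign on the arrays, each larger than its scanner error. The AID transgenic ratio minus the wild-type ratio was -1.77 for Cyp2c67 and -1.87 for Cyp2c68, and with 1 array per genotype the difference was not tested. Cyp2c67 had levels of 14.53, 15.22, 14.66 and 13.57 in the untreated wild-type, treated wild-type, untreated AID transgenic and treated AID transgenic livers, and Cyp2c68 had 14.01, 14.84, 13.94 and 12.90. In both genes the treated wild-type liver was the highest and the treated AID transgenic liver the lowest. The Cyp2c68 probe and 1 of the Cyp2c67 probes also list Cyp2c40, so the signal may not belong to these genes alone. The treated wild-type liver is also the one in which Xist was well above background and Ddx3y and Eif2s3y were not, and their part in these values was not tested.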

How the results depend on the processing

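No paired analysis was possible because each genotype had 1 array and no fit was made. Of 315 member values under the alternatives, 288 moved by less than their error, 27 moved by more, and 0 changed sign past the 2-fold limit. The counts of 6 lower members in the AID transgenic comparison, in the difference and between the treated livers were 6 under all 7 alternatives of each. In wild-type mice 1 member was past the limit, in place of 0, with the scanner's processed signals, the brightest probe and the deposited value table, and between the untreated livers 1 with the processed signals. Centring on the array median moved the members' median to 0.29 in wild-type and -1.42 in AID transgenic mice, and requiring every channel well above background moved the latter to -2.18, since the dim Cyp2c38 probe then drops out. Over all genes, those past the limit went from 584 to 1188 (offset 0), 2180 (processed signals), 1831 (median centring) and 2186 (deposited table) in wild-type, and from 361 to 889, 1992, 1411 and 1994 in AID transgenic mice. Higher genes then made up 65.8%, 72.2%, 94.4% and 72.5% of them, and 69.7%, 76.2%, 96.2% and 76.6%. For the difference 339 became 880 (offset 0), 1745 (processed) and 1734 (deposited), between untreated livers 86 became 205 and 419, and between treated livers 255 became 468 and 921 (offset 0 and processed). Dim probes, here that of Cyp2c38 and of Cyp2c55, are the least certain.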
